A study of Mus musculus with 29 samples.

Results

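The genes described here are 9 neutrophil granule and surface genes of the mouse, S100a8, S100a9, Retnlg, Ly6g, Clec4e, Fpr1, Fpr2, Lcn2 and Trem1, taken by symbol from a table of 24421 genes. A row was found for 8 of the 9, and Ly6g was not analysed here. They were followed in 29 RNA-seq libraries, 1 per mouse, from female C57BL/6 J mice aged 5 to 6 weeks that received YTN16 cells, a transplantable mouse gastric cancer line, IP on day 0 to model peritoneal dissemination. Tumor tissue (stripped peritoneum, per the study's methods, with or without nodules) was taken on day 21 (3wk) from 5 untreated mice, which were given PBS, and 5 dual ICI mice. On day 35 (5wk) it was taken from 5 untreated, 5 anti-PD1, 4 anti-CTLA4 and 5 dual ICI mice, the last being 2 dual ICI-uncured (mice 1 and 5) and 3 dual ICI-cured mice (mice 2, 3 and 4). Anti-PD1 was injected at 10 mg/kg and anti-CTLA4 at 5 mg/kg on days 5, 8 and 12, and on days 21 and 28 in mice kept to 5wk, and dual ICI is both antibodies. All mice of both time points received the same implant, so no group without an implant was among these libraries. The split of the 5 dual ICI mice rests on the study's mouse numbers being those of the library titles, so the undivided group of 5 was compared as well.

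Neutrophils are short-lived white blood cells that carry antimicrobial proteins in granules and in the cytosol and sense bacteria and damaged tissue through surface receptors. S100A8 and S100A9 pair as calprotectin, lipocalin-2 (Lcn2) withholds iron from bacteria, and resistin-like gamma (Retnlg) is a secreted protein abundant in mouse neutrophils. FPR1 and FPR2 are formyl peptide receptors, TREM1 amplifies inflammatory signals, and Mincle (Clec4e) is a lectin receptor that is also made by macrophages. Several of these genes are not restricted to neutrophils: inflamed and transformed epithelium makes lipocalin-2 and calprotectin. For that reason each gene was set against a tumor epithelium score, the mean log2 CPM of 21 epithelial genes such as Epcam, Krt8 and Cldn4 (CPM, read counts scaled to a common library size by TMM).

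The promoters of 4 members are shown because these genes separate the patterns described below: S100a9 moved with the epithelium score and with time, Retnlg and Clec4e stood higher in dual ICI mice at 3wk without passing the test, and Trem1 was at the floor in cured mice. Each line holds the 250 bases before the RefSeq start in GRCm38.p6, on the strand of the gene, and capitals mark motif matches on either strand. The windows are chr3:90695722-90695971 (minus strand) for S100a9, chr16:48872358-48872607 (plus strand) for Retnlg, chr6:123289872-123290121 (minus strand) for Clec4e and chr17:48232489-48232738 (plus strand) for Trem1.
S100a9: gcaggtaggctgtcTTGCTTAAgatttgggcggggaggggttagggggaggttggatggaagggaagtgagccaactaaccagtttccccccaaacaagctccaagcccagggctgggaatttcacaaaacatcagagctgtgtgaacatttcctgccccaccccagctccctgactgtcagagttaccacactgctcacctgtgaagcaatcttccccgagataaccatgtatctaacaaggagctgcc
Retnlg: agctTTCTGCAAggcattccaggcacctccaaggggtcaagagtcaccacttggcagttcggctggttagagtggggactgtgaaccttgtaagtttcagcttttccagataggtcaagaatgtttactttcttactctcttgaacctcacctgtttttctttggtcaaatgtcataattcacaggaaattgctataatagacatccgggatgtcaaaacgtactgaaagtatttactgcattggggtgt
Clec4e: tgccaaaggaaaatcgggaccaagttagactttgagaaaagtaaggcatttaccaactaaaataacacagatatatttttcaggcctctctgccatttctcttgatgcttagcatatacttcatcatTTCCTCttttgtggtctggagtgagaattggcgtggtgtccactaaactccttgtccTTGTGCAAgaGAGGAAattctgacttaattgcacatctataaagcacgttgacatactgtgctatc
Trem1: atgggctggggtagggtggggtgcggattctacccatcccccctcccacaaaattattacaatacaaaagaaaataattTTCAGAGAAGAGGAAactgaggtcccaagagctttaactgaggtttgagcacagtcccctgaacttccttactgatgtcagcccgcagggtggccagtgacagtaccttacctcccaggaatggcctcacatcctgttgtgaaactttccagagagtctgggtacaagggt
The motifs searched were C/EBP (TTGCNNAA), PU.1 (GAGGAA), STAT (TTCNNNGAA), AP-1 (TGANTCA) and NF-kB (GGANTTTCC), on both strands. A C/EBP match was present in 5 of the 9 member promoters (S100a9, Retnlg, Ly6g, Clec4e and Lcn2) and in 9.55% of 27025 promoters of the same length. A PU.1 match was present in 6 of 9 (S100a8, Ly6g, Clec4e, Fpr2, Lcn2 and Trem1) and in 23.1% of all promoters, and a STAT match in Fpr2 and Trem1 and in 7.18% of all. No member window held the AP-1 or NF-kB letters, which 6.87% and 1.05% of promoters did. In Trem1 the STAT match and the PU.1 match abut, starting 171 and 162 bases before the start, and in Clec4e the C/EBP match lies 66 bases before the start and a PU.1 match 56. These are matches of letters and not measured binding.

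By GENCODE vM21 on GRCm38, the calprotectin genes are neighbours on chromosome 3 (S100a8 90668978 to 90670035, S100a9 90692632 to 90695721), and Fpr1 (17876471 to 17883940), Fpr2 (17887824 to 17893952) and Trem1 (48232768 to 48246924) lie on chromosome 17. Lcn2 is on chromosome 2 (32384633 to 32388252), Clec4e on chromosome 6 (123281789 to 123289870), Retnlg on chromosome 16 (48872621 to 48874496) and Ly6g on chromosome 15 (75155240 to 75159126). Fpr2 overlaps Fpr3 on the same strand and Trem1 overlaps AC241601.2 on the other strand, so their counts are uncertain to the extent that reads were shared.

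The 8 genes differed widely in level in this tissue, and they were not ranked against all genes. Per kilobase of exon, the order in untreated mice at 5wk was S100a9 (25.7 ± 9.67 CPM per kb, SD, n = 5), S100a8 (21.7 ± 8.19), Lcn2 (13.0 ± 5.08), Retnlg (8.28 ± 4.23), Fpr2 (1.03 ± 0.360), Fpr1 (0.672 ± 0.301), Trem1 (0.662 ± 0.321) and Clec4e (0.290 ± 0.144). S100a9 and S100a8 differed by less than the spread between mice, as did Fpr1 and Trem1, while the 4 secreted or cytosolic proteins lay above the 4 receptors. Of 28 other neutrophil genes with a row, 12 had more than 3 counts in every library. The surface receptors Csf3r (25.5 ± 11.6 CPM in untreated 5wk mice) and Cxcr2 (4.30 ± 2.12 CPM) were present. The 9 granule genes of the list differed among themselves: Ltf (28.7 ± 15.4 CPM), Mmp9 (25.6 ± 7.84 CPM), Prtn3 (2.06 ± 1.04 CPM) and Mmp8 (0.523 ± 0.254 CPM) were measured in the same mice, whereas Mpo (0.211 ± 0.119 CPM), Elane (0.0927 ± 0.0765 CPM), Ctsg (0.214 ± 0.150 CPM), Camp (0.146 ± 0.186 CPM) and Ngp (0.437 ± 0.608 CPM) were near the floor of 3 counts per library. The label was thus met by part of the list, and bulk RNA cannot tell fewer cells from less RNA per cell.

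Library totals lay between 25989217 and 31219650 counts, and every dual ICI library at 3wk was larger than every untreated one. The tumor epithelium score lay between 3.65 and 5.24 in the 10 mice at 3wk, between 4.27 and 5.90 in 15 of the 16 mice at 5wk outside the dual ICI-cured group, and between -0.77 and 0.79 in the dual ICI-cured mice. The remaining library, anti-PD1 mouse 5, had a score of 0.38, among the cured mice. The study describes a cured mouse in the anti-PD1 group without giving its number. Whether that is mouse 5 is not given in the sources used here, so the library was kept in its labelled group and each result that rests on it is given with and without it. The 3wk and 5wk libraries carry library identifiers from separate number ranges, whose meaning the labels do not give, so time and any difference in handling cannot be told apart.

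**Figure D1:**
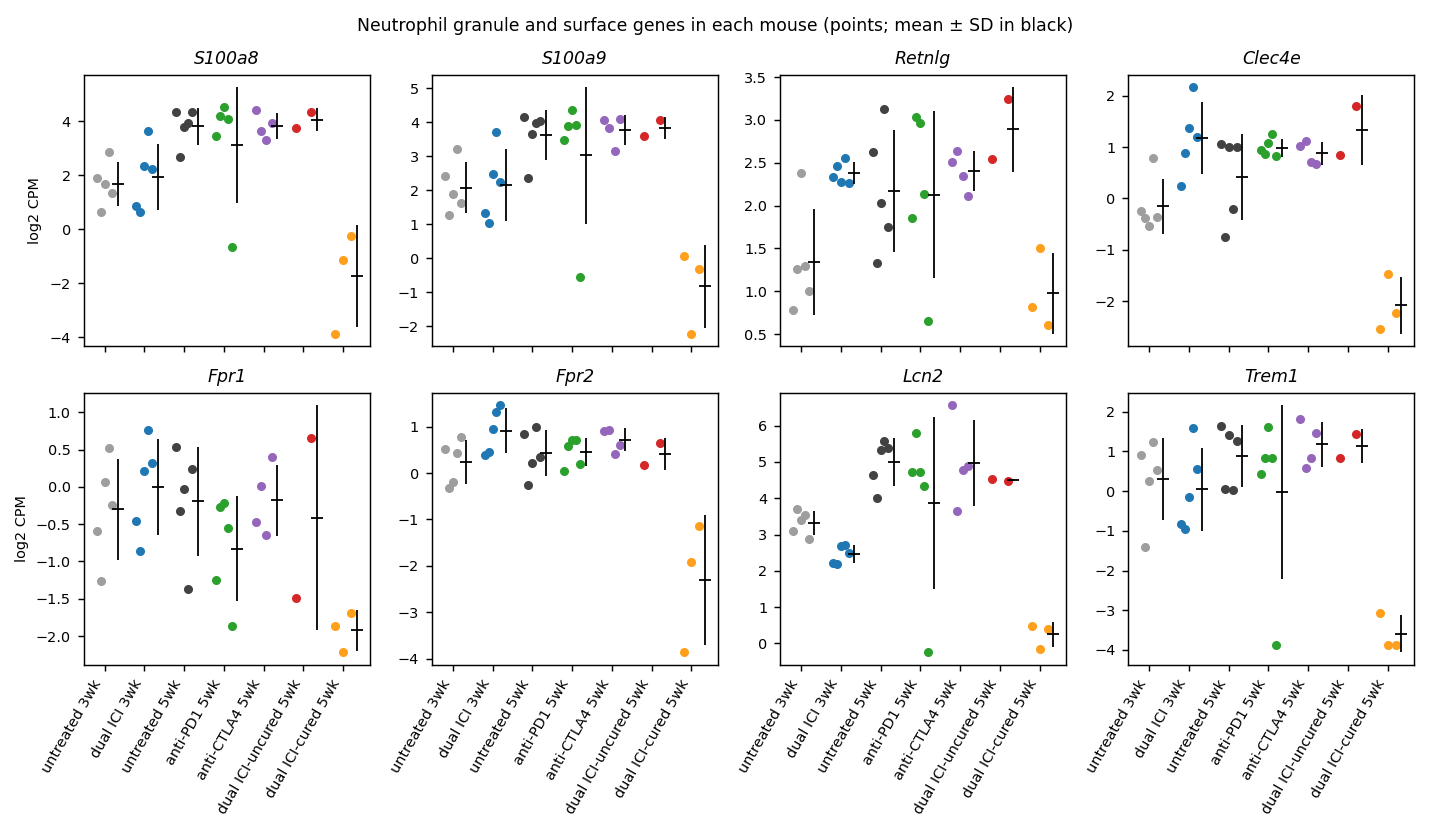
Log2 CPM of the 8 measured genes in each of 29 mice, by group, with the group mean and SD in black. For Clec4e and Fpr2 the 3 cured mice are the lowest of the 29, and for the other 6 genes anti-PD1 mouse 5 lies within or below their range.

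The first comparison asked what was left of these transcripts where dual ICI had cleared the tumor. All 8 genes fell in dual ICI-cured mice against untreated mice at 5wk, where 26.7% of 15816 tested genes were lower. Only Retnlg and Lcn2 had enough counts in the cured mice alone to pass the filter on low counts. The other members passed through the untreated mice, so a fall was favoured in advance for them. The mean left in cured mice was 2.58% of the untreated mean for S100a8, 3.33% for Lcn2 and 4.58% for S100a9, against 12.5% for Clec4e, 14.5% for Fpr2, 22.2% for Fpr1 and 40.2% for Retnlg. Trem1 was at the floor in cured mice and is given as a bound below. The falls of different members were not tested against each other.

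S100a8 was at 20.1, 6.26, 13.6, 15.2 and 19.97 CPM in untreated mice 1 to 5 and at 0, 0.390 and 0.775 CPM in cured mice 2, 3 and 4. Its log2 fold change was -5.22 (SE 0.71, edgeR adjusted p = 0.000531), and the groups did not overlap. S100a9, its partner, was at 17.6, 5.04, 12.5, 15.8 and 16.2 CPM in untreated and 0.973, 0.146 and 0.726 CPM in cured mice (log2 fold change -4.42, SE 0.58, edgeR adjusted p = 0.000446). Both calprotectin genes were high in every untreated mouse, mouse 2 being the lowest. Lcn2 was at 24.9, 15.9, 40.4, 48.1 and 41.8 CPM in untreated mice and at 1.33, 0.828 and 1.26 CPM in cured mice. It had the smallest p of the members (log2 fold change -4.88, SE 0.43, edgeR adjusted p = 0.00013). Retnlg was at 6.12, 2.44, 4.02, 8.67 and 3.29 CPM in untreated mice and at 1.69, 2.78 and 1.45 CPM in cured mice. Its groups overlapped, because cured mouse 3 exceeded untreated mouse 2, and its fall was the smallest (log2 fold change -1.28, SE 0.44, edgeR adjusted p = 0.0392). The Retnlg call was lost when any of cured mice 2 or 4 or untreated mice 1, 3 or 4 was left out, with log2 fold changes between -1.35 and -0.93 and adjusted p between 0.0531 and 0.138.

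Among the receptors, Trem1 was at 3.03, 0.976, 2.61, 0.955 and 2.35 CPM in untreated mice and had 1, 0 and 0 counts in cured mice. Against the floor of 3 counts per library it was at least 13.4-fold lower (edgeR adjusted p = 0.000558). Clec4e was at 2.00, 0.529, 1.93, 0.796 and 1.94 CPM in untreated mice and at 0.102, 0.292 and 0.145 CPM in cured mice, which did not overlap (log2 fold change -2.95, SE 0.63, edgeR adjusted p = 0.00531). Fpr2 was at 1.72, 0.773, 1.08, 1.91 and 1.20 CPM in untreated and 0, 0.195 and 0.387 CPM in cured mice (log2 fold change -2.71, SE 0.68, edgeR adjusted p = 0.0111). Fpr1 was at 1.37, 0.732, 0.909, 0.318 and 1.12 CPM in untreated and 0.205, 0.146 and 0.242 CPM in cured mice (log2 fold change -2.14, SE 0.55, edgeR adjusted p = 0.0119). Neither formyl peptide receptor overlapped between the groups, and the Fpr1 call was lost without cured mouse 3 (log2 fold change -1.97, adjusted p = 0.0552). The counts behind these cured values were 8 or fewer for Fpr1, Fpr2 and Clec4e, so the sizes of the falls are imprecise.

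The same genes stood higher in dual ICI-uncured than in cured mice. Of the 7 that passed the filter all 7 rose, where 36.9% of 15796 genes were higher, with log2 fold changes from 1.91 for Retnlg to 5.37 for S100a8 and Trem1 at least 14.7-fold higher. S100a8, Clec4e, Fpr2 and Trem1 passed the filter only through the uncured mice, so a rise was favoured in advance for them. Lcn2, at 23.0 and 22.3 CPM in uncured mice 1 and 5, had a log2 fold change of 4.28 (SE 0.21, edgeR adjusted p = 8.2e-07). S100a9 (4.52, SE 0.44) and Clec4e (3.78, SE 0.52) followed, and Fpr2 (2.65, SE 0.70) lost its call without uncured mouse 5 (2.36, edgeR adjusted p = 0.0656). Fpr1 did not pass the filter, at 0.289 and 1.5 CPM in the uncured mice. All 8 genes were also called higher in anti-CTLA4 than in cured mice, where 33.6% of 15668 genes were higher. There too only Retnlg and Lcn2 had enough counts in cured mice alone to pass the filter. Cured tissue differed in much else: its tumor epithelium score (-0.77 to 0.79) lay below that of untreated mice (4.27 to 5.85), its macrophage score (5.65 to 5.79) lay within theirs (5.33 to 6.58), and its skeletal muscle score (13.4 to 13.6) lay above theirs (10.7 to 12.9). That macrophage score lay below those of uncured (6.49 to 6.76) and anti-CTLA4 mice (6.12 to 6.72). The monocyte score was 3.46 to 4.00 in cured, 3.88 to 5.04 in untreated, 4.84 to 5.27 in anti-CTLA4 and 5.20 to 5.61 in uncured mice. The part of these shifts in the members' values was not tested.

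**Figure D2:**
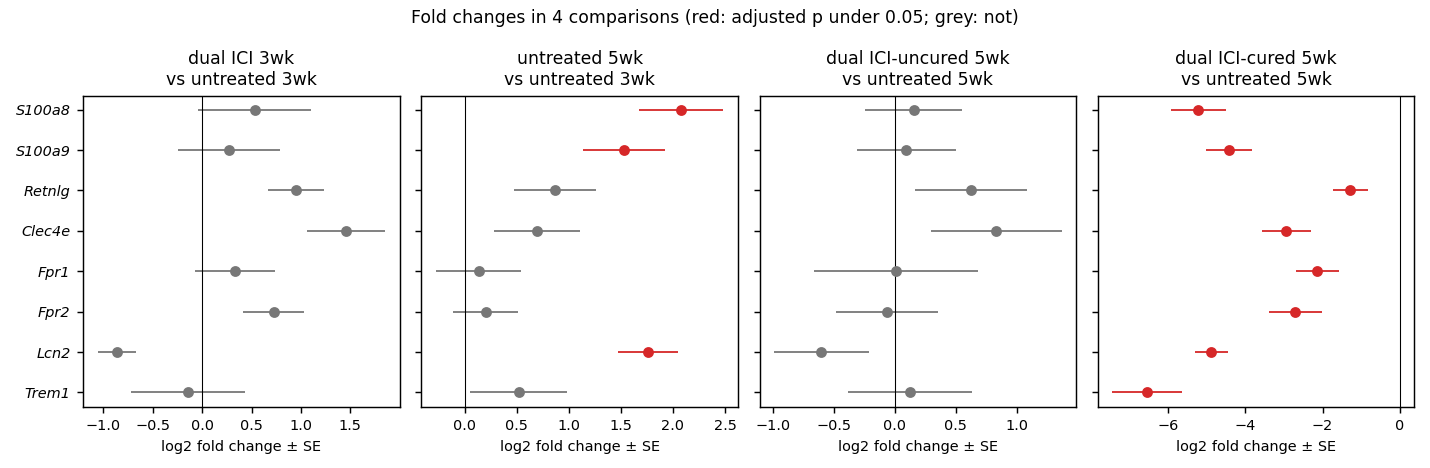
Log2 fold changes with SE of the 8 members in 4 comparisons, each panel with its own horizontal scale, red where the edgeR adjusted p was under 0.05. All 8 are red in cured against untreated mice, S100a8, S100a9 and Lcn2 are red in untreated mice at 5wk against 3wk, and none is red for dual ICI at 3wk or in uncured mice.

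Anti-PD1 mouse 5 split the members. S100a8 (0.568 CPM), S100a9 (0.620 CPM), Retnlg (1.5 CPM), Fpr1 (0.207 CPM) and Trem1 (0 CPM) lay within the range of the cured mice, and Lcn2 (0.774 CPM) lay below it. In the other 4 anti-PD1 mice S100a8 ran from 11.0 to 23.1 CPM, S100a9 from 11.0 to 20.5 CPM, Lcn2 from 20.3 to 55.4 CPM and Trem1 from 1.29 to 3.00 CPM. Fpr2, with 21 counts (1.08 CPM), lay instead within the range of those 4 mice (0.964 to 1.58 CPM) and above every cured mouse (at most 0.387 CPM). Clec4e, with 33 counts (1.70 CPM), lay just under those 4 mice (1.74 to 2.31 CPM) and above every cured mouse (at most 0.292 CPM). This is 1 library and carries no test. Against cured mice, 6 of 8 members were higher in the 5 anti-PD1 mice, where 16.3% of 15749 genes were higher, and Retnlg (edgeR adjusted p = 0.0931) and Fpr1 (edgeR adjusted p = 0.0747) were not called. Members other than Retnlg and Lcn2 passed the filter only through the anti-PD1 mice. Without mouse 5 all 8 were called, while leaving out any one of the other 4 anti-PD1 mice or of the 3 cured mice left 0 members called by edgeR. With all mice, S100a8, S100a9, Clec4e and Lcn2 shared an edgeR adjusted p of 0.0403, at unadjusted p from 1.65e-05 to 0.00387. Such calls depend on the adjustment over the whole table, and the genes called over it without a mouse are not given here.

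The second question was whether the genes changed as untreated tumors grew. In untreated mice at 5wk against 3wk, 3 of 8 members rose by the edgeR test, where 6.24% of 15604 genes were higher, and all 3 were granule or cytosolic proteins. S100a8 was at 3.61, 1.47, 3.09, 7.08 and 2.49 CPM in untreated mice 1 to 5 at 3wk, against the 6.26 to 20.1 CPM given above at 5wk. Its mean was 4.24-fold higher (log2 fold change 2.08, SE 0.40, edgeR adjusted p = 0.0123), and the groups overlapped only through the lowest mouse at 5wk and the highest at 3wk. Lcn2 was at 8.44, 12.9, 10.4, 11.5 and 7.31 CPM at 3wk and did not overlap with 5wk (log2 fold change 1.76, SE 0.29, edgeR adjusted p = 0.00633). S100a9 was at 5.22, 2.32, 3.6, 9.10 and 3.04 CPM at 3wk (log2 fold change 1.53, SE 0.40, edgeR adjusted p = 0.0331). The S100a9 call was lost without any one mouse except untreated mouse 2 at 5wk and mouse 4 at 3wk, with adjusted p up to 0.0848.

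The other 5 members gave smaller differences over time that did not pass. Retnlg had a log2 fold change of 0.87 (SE 0.39), Clec4e of 0.70 (SE 0.41) and Trem1 of 0.52 (SE 0.47), with edgeR adjusted p of 0.162, 0.274 and 0.48. Fpr1 averaged 0.814 ± 0.387 CPM at 3wk and 0.890 ± 0.399 CPM at 5wk, and Fpr2 1.16 ± 0.384 and 1.34 ± 0.467 CPM (SD, n = 5). The epithelium score rose alongside, from 3.86 to 5.17 at 3wk to 4.27 to 5.85 at 5wk. With that score as a covariate S100a8 remained called (log2 fold change 1.07, edgeR adjusted p = 0.0447), while S100a9 (0.46, adjusted p = 0.247) and Lcn2 (1.26, adjusted p = 0.0692) were not. Under dual ICI, uncured mice at 5wk exceeded dual ICI mice at 3wk in 1 of 8 members, where 3.05% of 16135 genes were higher. That member was Lcn2, whose mean was 4.11-fold higher (log2 fold change 2.02, SE 0.20, edgeR adjusted p = 0.0121). Its call was lost without uncured mouse 1, uncured mouse 5 or dual ICI mouse 3 at 3wk, at adjusted p between 0.0676 and 0.157. Both uncured mice also exceeded every dual ICI mouse at 3wk in S100a8, without passing (edgeR adjusted p = 0.139).

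The third question, whether dual ICI altered these genes early, gave differences in both directions that did not pass the genome-wide test. At 3wk edgeR called 0 of 8 members, where 0.574% of 15503 genes were called in either direction. Of the 8, 4 had an unadjusted p under 0.05, against 1658 of the 15503 genes, and DESeq2 called 3 (Retnlg, Clec4e and Lcn2), against 501 genes in all. Lcn2 was the only member without overlap between the groups, and the share of all genes without overlap was not counted.

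Lcn2 was at 4.57, 4.51, 6.42, 6.50 and 5.54 CPM in dual ICI mice 1 to 5, each below the lowest untreated mouse at 3wk (7.31 CPM). Its mean was 1.84-fold higher in untreated mice (10.1 ± 2.27 against 5.51 ± 0.960 CPM, SD, n = 5 each), with a log2 fold change of -0.87 (SE 0.19, edgeR adjusted p = 0.0776). Clec4e was at 0.771, 0.697, 0.618, 1.65 and 0.705 CPM in untreated mice and at 1.11, 1.79, 2.51, 4.44 and 2.23 CPM in dual ICI mice. Untreated mouse 4 was the one untreated mouse inside the dual ICI range, and the log2 fold change was 1.46 (SE 0.40, edgeR adjusted p = 0.157). Retnlg was at 1.65, 2.32, 5.13, 2.39 and 1.93 CPM in untreated mice and within a narrow range, 4.98, 5.44, 4.76, 5.80 and 4.74 CPM, in dual ICI mice. Untreated mouse 3 alone reached the dual ICI range (log2 fold change 0.94, SE 0.28, edgeR adjusted p = 0.205), and without it Retnlg passed (1.32, adjusted p = 0.0375). Fpr2 was at 1.37, 0.736, 0.800, 1.27 and 1.63 CPM in untreated mice and 1.23, 1.30, 1.85, 2.43 and 2.67 CPM in dual ICI mice (log2 fold change 0.72, SE 0.31, edgeR adjusted p = 0.429).

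The calprotectin genes, Fpr1 and Trem1 overlapped widely at 3wk. S100a8 was at 1.73, 1.49, 4.93, 12.4 and 4.62 CPM in dual ICI mice and averaged 5.03 ± 4.41 CPM against 3.55 ± 2.13 CPM in untreated mice. S100a9 averaged 5.52 ± 4.46 against 4.66 ± 2.7 CPM, Fpr1 1.01 ± 0.453 against 0.814 ± 0.387 CPM and Trem1 1.22 ± 1.03 against 1.39 ± 0.750 CPM (SD, n = 5), with edgeR adjusted p between 0.837 and 0.974. Dual ICI mouse 4 was the highest of its group in S100a8, S100a9, Clec4e, Fpr1, Lcn2, Trem1 and Retnlg, and it also had the highest epithelium score at 3wk (5.24). With the score as a covariate Clec4e (log2 fold change 1.54, edgeR adjusted p = 0.0024), Lcn2 (-0.86, adjusted p = 0.00965) and Retnlg (0.96, adjusted p = 0.0465) passed, in a fit that called 1171 of 15503 genes where the fit without the score called 89. The squamous epithelium score lay between -0.66 and 0.35 in dual ICI mice and between 0.43 and 1.09 in untreated mice at 3wk, so it was lower in dual ICI mice, as was Lcn2. Untreated mouse 2, however, had the lowest squamous score of its group (0.43) and the highest Lcn2 (12.9 CPM). The adipocyte score also averaged lower in dual ICI mice (4.51 to 6.21 against 6.13 to 7.26). The macrophage score (6.53 to 7.39 in dual ICI, 6.33 to 6.59 in untreated mice) averaged higher in dual ICI mice, as did Clec4e. The monocyte score (4.78 to 6.04 against 4.75 to 5.26) also averaged higher. Dual ICI mouse 4, highest in Clec4e, had the highest monocyte score (6.04) but a macrophage score of 6.69, against 7.39 in mouse 5. The part of any of these scores in the members' values was not tested.

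**Figure D3:**
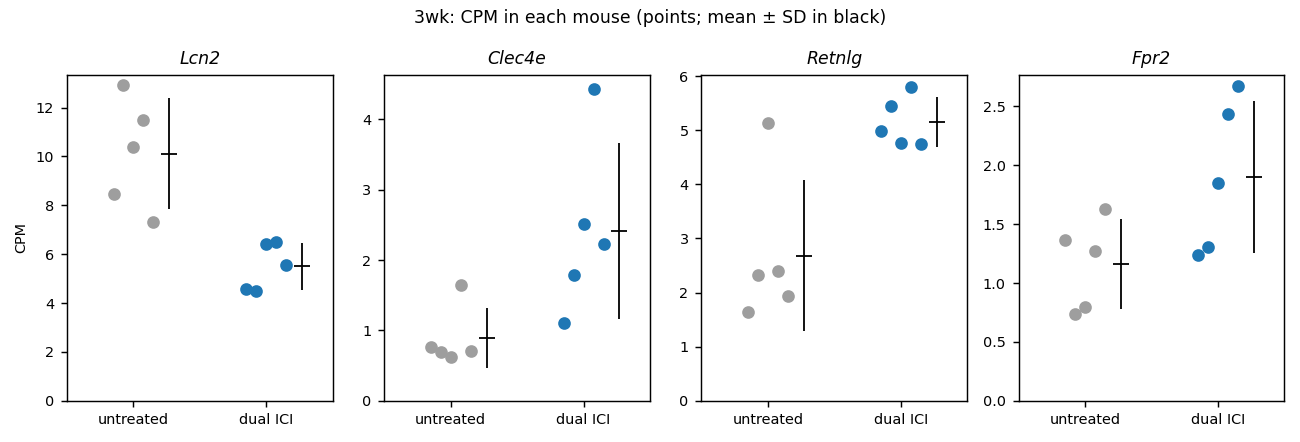
CPM of Lcn2, Clec4e, Retnlg and Fpr2 in each of the 5 untreated and 5 dual ICI mice at 3wk, with mean and SD in black and axes from 0. The Lcn2 groups do not overlap, and for Clec4e and Retnlg 1 untreated mouse reaches the dual ICI range.

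Because Lcn2 and S100a9 are both neutrophil and epithelial products, their ratio within a library was compared. The log2 ratio of Lcn2 to S100a9 averaged 0.31 ± 0.84 in dual ICI and 1.24 ± 0.81 in untreated mice at 3wk (SD, n = 5). The difference of -0.94 had p = 0.119 (exact two-sided permutation test, smallest possible p 0.00794). In cured mice the ratio averaged 1.08 ± 0.87 (n = 3) against 1.36 ± 0.50 (n = 5) in untreated mice at 5wk, with p = 0.5 (exact two-sided permutation test, smallest possible p 0.0179). Neither difference passed the test, and the one at 3wk was slightly larger than the SD of either group.

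At 5wk the treated tumors that persisted were compared with untreated ones. In dual ICI-uncured against untreated mice edgeR called 0 of 8 members, 0 were below 0.05 before adjustment and DESeq2 called 0. Over the whole table edgeR called 0% of 16156 genes, 787 being below 0.05 before adjustment and 17 called by DESeq2. Clec4e was at 1.73 and 3.44 CPM and Retnlg at 5.75 and 9.38 CPM in uncured mice 1 and 5, with log2 fold changes of 0.83 (SE 0.54) and 0.62 (SE 0.46) and edgeR adjusted p of 0.734 for both. Lcn2 differed the other way (-0.60, SE 0.39, edgeR adjusted p = 0.734), and every member overlapped between the groups. Uncured mouse 1 had 9 Fpr1 counts (0.289 CPM) and mouse 5 had 55 (1.5 CPM), the widest relative spread of any member in that group.

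The monotherapies gave the same count. In anti-PD1 against untreated mice edgeR called 0 of 8 members with 0% of 15640 genes called, and in anti-CTLA4 against untreated mice 0 of 8 with 0% of 15781 called. No member had an unadjusted p under 0.05 in either comparison and DESeq2 called 0, and the count stayed at 0 without anti-PD1 mouse 5. The widest spread was in Lcn2 under anti-CTLA4, at 94.1, 12.5, 27.5 and 29.7 CPM in mice 1 to 4, where mouse 1 exceeded every other library of the series. S100a8 in that mouse was 21.03 CPM, above every untreated mouse at 5wk (at most 20.1 CPM) and within the range of the anti-PD1 mice. Its Trem1 (3.47 CPM) was also the highest of the series, while its S100a9 (16.6 CPM) lay below that of anti-CTLA4 mouse 4 (17.0 CPM). For the undivided group of 5 dual ICI mice against untreated mice edgeR and DESeq2 called 0 of 8 members, 0 of them below 0.05 before adjustment, and 0% of 15588 genes were called. All 8 members had a lower mean there, the 3 cured mice lying below the 2 uncured ones in each. The share of all genes ordered in that way was not counted, and 5831 of 15796 genes were called higher in uncured than in cured mice. The difference between the dual ICI effects at 5wk (uncured) and at 3wk was called in 0 of 8 members and 0% of 16542 genes by edgeR, with 0 members below 0.05 before adjustment and 0 called by DESeq2. The largest was Fpr2, at a log2 difference of -0.78 (SE 0.52). Over all genes, the numbers below 0.05 before adjustment were 205 for anti-PD1, 128 for anti-CTLA4, 1071 for the undivided group and 1050 for the difference in effects, and DESeq2 called 0, 0, 46 and 1.

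Each gene was then set against the tumor epithelium score mouse by mouse, in 16 correlations (8 genes at 2 time points) adjusted together. At 3wk, over 10 mice, 4 genes followed the score closely. S100a8 had Pearson r = 0.947 (permutation p = 5e-05, adjusted 0.0008), S100a9 r = 0.936 (permutation p = 0.00013, adjusted 0.00104), Trem1 r = 0.933 (permutation p = 0.00032, adjusted 0.00147) and Fpr1 r = 0.869 (permutation p = 0.00139, adjusted 0.00278). Spearman's rho was 0.879 for S100a8, S100a9 and Trem1 and 0.855 for Fpr1, with permutation p of 0.00172, 0.00157, 0.00176 and 0.00304 in that order. Without the 2 mice farthest from the median score, dual ICI mice 1 and 2, r was 0.943, 0.922, 0.918 and 0.909 for S100a8, S100a9, Trem1 and Fpr1. As deviations from the group means r was 0.985, 0.953, 0.932 and 0.939, so the relation was also present within the treatment groups. Other neutrophil genes ranged widely in r with the score at 3wk. Cxcr2 had 0.951, Csf3r 0.948, Slfn4 0.897 and Il1b 0.819, while Itgb2 had 0.0078 and Cebpe -0.773. A high r was therefore not particular to the members, and which cells made the transcripts was not tested.

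The other 4 genes did not pass at 3wk. Retnlg had r = -0.064 (rho 0.067), Lcn2 r = 0.319 (rho 0.358), Clec4e r = 0.437 (rho 0.321) and Fpr2 r = 0.495 (rho 0.430), with permutation p of 0.862, 0.362, 0.206 and 0.147. As deviations from the group means Clec4e (r = 0.850, permutation p = 0.00179, adjusted 0.00286) and Fpr2 (r = 0.742, permutation p = 0.018, adjusted 0.0263) did pass, and Lcn2 (0.392) and Retnlg (0.073) did not. These deviations do not compare the groups. Clec4e was higher in dual ICI mice with the score as a covariate (log2 fold change 1.54, edgeR adjusted p = 0.0024, 1171 genes called in all). It was not called without the score (edgeR adjusted p = 0.157). Lcn2, although an epithelial product, did not pass as a follower of the score at 3wk.

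At 5wk the 16 mice outside the dual ICI-cured group fell into anti-PD1 mouse 5 and 15 others, so no pooled r is given. Over all 16 mice S100a8, S100a9, Retnlg, Lcn2 and Trem1 passed, but over the 15 others only S100a8 (r = 0.711, permutation p = 0.00852, adjusted 0.0227) and Trem1 (r = 0.614, permutation p = 0.00845, adjusted 0.0227) did. Without untreated mouse 2 as well, the lowest of the 15, r fell to 0.352 for S100a8 and 0.472 for Trem1 and 0 of 8 members passed. The relation at 5wk therefore rests on those 2 mice, and the remaining 14 scores span only 4.96 to 5.90.

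**Figure D4:**
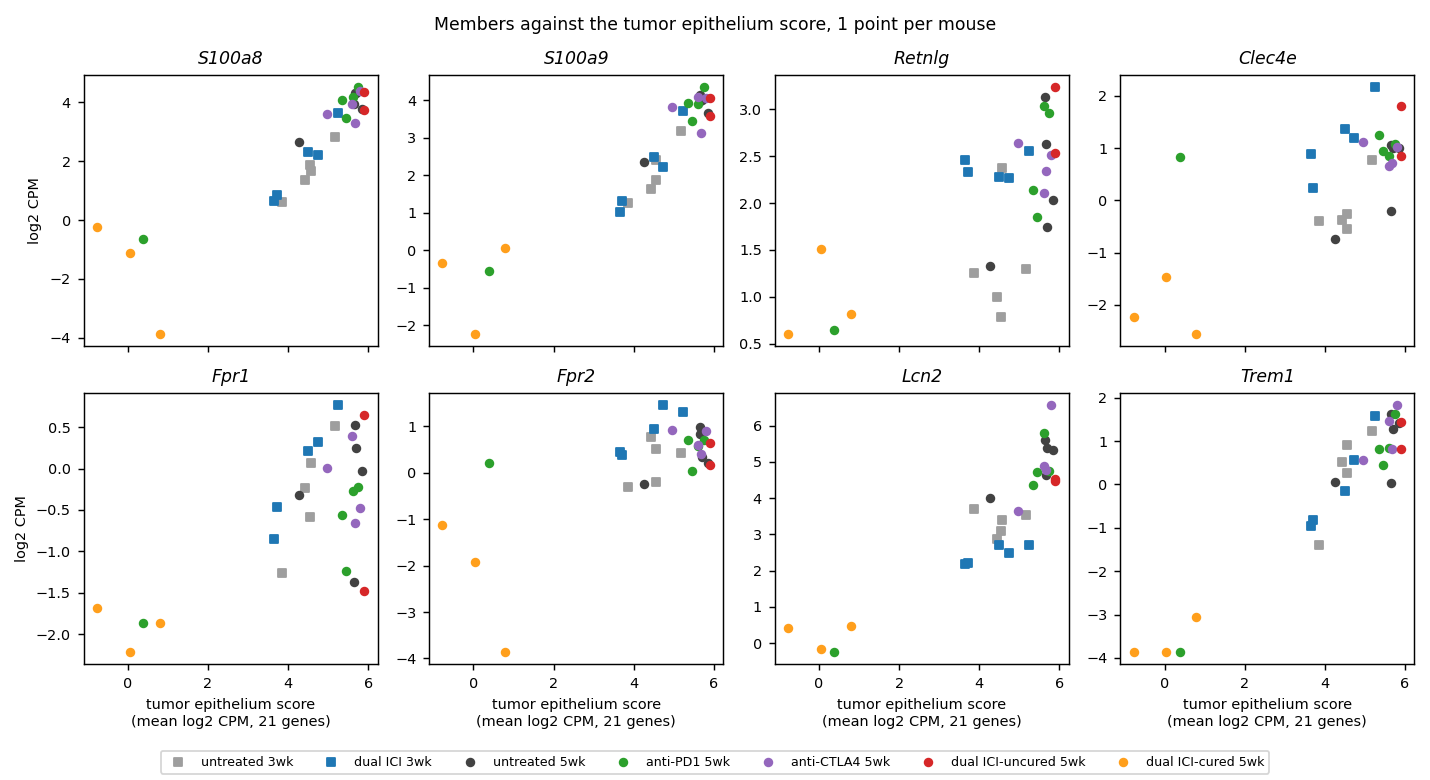
Log2 CPM of each member against the tumor epithelium score (mean log2 CPM of 21 genes), 1 point per mouse, squares for 3wk and circles for 5wk. S100a8, S100a9 and Trem1 rise along 1 band at 3wk, whereas the blue dual ICI squares of Clec4e lie mostly above the grey untreated ones, and the isolated green point at a score of 0.38 is anti-PD1 mouse 5, level with other treated mice only for Clec4e and Fpr2.

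Among themselves the members were not one block. Over all 29 libraries the 28 pairs had Pearson r from 0.446 to 0.926 (median 0.675), in a set where all members are low in the cured mice. Over the 25 libraries without the cured mice and anti-PD1 mouse 5, r ran from -0.161 to 0.987 (median 0.466). S100a8 and S100a9 were closest (0.987), each of them with Trem1 (0.808 for both) and S100a8 with Lcn2 (0.775) followed, and Lcn2 was unrelated to Clec4e (0.088), Fpr2 (-0.095) and Fpr1 (-0.161). These values are descriptions, since the libraries share groups and depth.

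**Figure D5:**
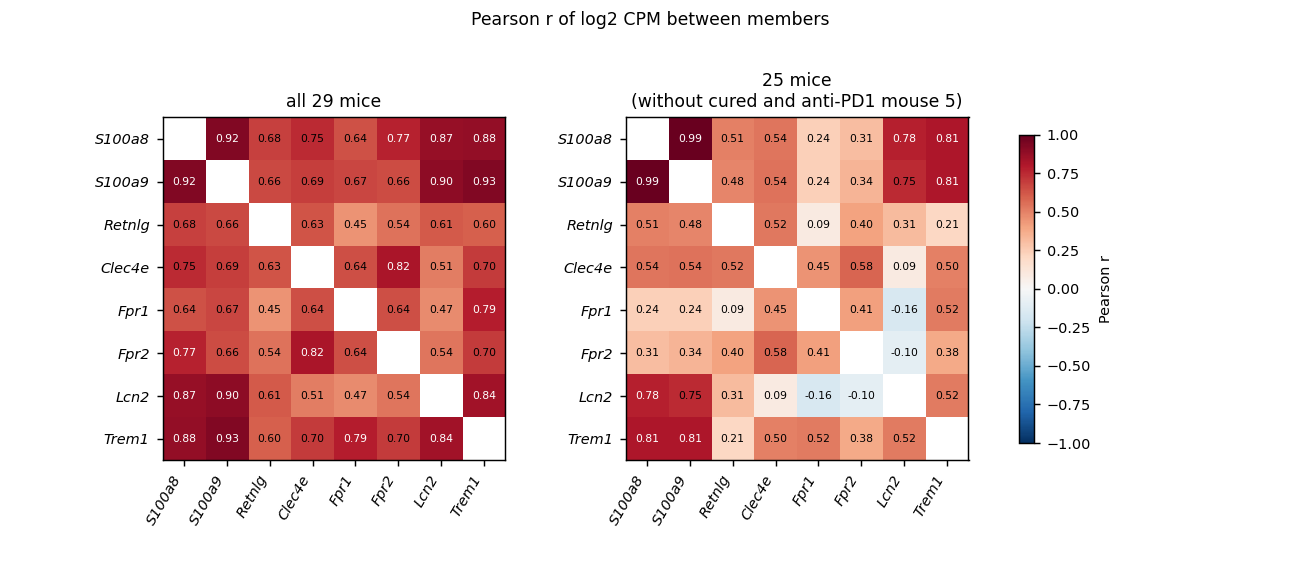
Pearson r of log2 CPM for each pair of members over all 29 mice and over the 25 mice left without the cured mice and anti-PD1 mouse 5. S100a8, S100a9, Lcn2 and Trem1 stay related in the right panel (0.52 to 0.99), and Lcn2 is unrelated to the receptors Clec4e, Fpr1 and Fpr2 there.

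The genes outside the list with the most similar profiles were sought over 29 libraries among 16744 genes. For S100a9 they were Ppap2c (r = 0.970), Mgst2 (0.970) and the connexin gene Gjb1 (0.967), and for S100a8 Shq1 (0.961), Upk3bl (0.951) and Marveld2 (0.950), which encodes a protein of epithelial tight junctions. For Lcn2 they included Trip6 (0.962) and the epithelial sodium channel subunit Scnn1a (0.961). Trem1, listed as a myeloid receptor, had F2rl1 (0.978), Prom1 (0.975) and Baiap2l1 (0.975) nearest, genes known from epithelium. Which cells made Trem1 was not tested, and the neutrophil receptor genes Cxcr2 (r = 0.951) and Csf3r (r = 0.948) also followed the epithelium score at 3wk. Fpr2 stood nearest to the myeloid Fc receptor gene Fcgr4 (0.880), then Mtfr2 (0.878) and the granzyme gene Gzma (0.874). Over the 25 libraries without the cured mice and anti-PD1 mouse 5, Mtfr2 fell to 0.628 and Gzma to 0.497. Clec4e had Mis18a (0.880), Cenpa (0.878) and Vegfc (0.874), Fpr1 had Hgf (0.828), Cd38 (0.819) and Bard1 (0.817), and Retnlg had Ptpn18 (0.834), Ada (0.829) and 2610524H06Rik (0.827). Without the cured mice and anti-PD1 mouse 5 the first named stayed at 0.930 for S100a9, 0.877 for S100a8, 0.913 for Lcn2 and 0.921 for Trem1, against 0.836 for Fpr2, 0.909 for Clec4e, 0.688 for Fpr1 and 0.779 for Retnlg.

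Known partners and receptors of the members were read beside them. In cured against untreated mice 5 of 19 tested partners fell, a share close to the 26.7% of all tested genes that were lower, and 1 rose (median log2 fold change -0.36, against -0.05 over all genes). Pglyrp1, a ligand of TREM1, fell with it (71.6 ± 27.2 to 3.45 ± 0.767 CPM, edgeR adjusted p = 0.000128), as did Clec4d, the lectin partner of Mincle (3.06 ± 1.18 to 0.446 ± 0.0617 CPM, edgeR adjusted p = 0.00127), and Ager, a receptor of calprotectin (4.44 ± 2.86 to 0.561 ± 0.106 CPM, edgeR adjusted p = 0.00246). Retnla, a resistin-like relative of Retnlg made by macrophages and adipose tissue, rose instead (66.8 ± 45.5 to 386.3 ± 58.9 CPM, edgeR adjusted p = 0.00322). At 3wk edgeR called 0 of 19 partners under dual ICI, where 5 were below 0.05 before adjustment and DESeq2 called 3. Over time in untreated mice 1 of 19 rose, Ager (edgeR adjusted p = 0.0294), and 2 fell, Syk (edgeR adjusted p = 0.0268) and Retnla (edgeR adjusted p = 0.0482), beside 973 higher and 714 lower of 15604 genes in all.

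Among other neutrophil genes, 7 of 16 tested fell in cured against untreated mice and none rose (median log2 fold change -0.99), beside the 26.7% of all tested genes that were lower. They included Il1b (7.32 ± 2.26 to 0.375 ± 0.214 CPM, edgeR adjusted p = 0.000218), the granule gene Ltf (28.7 ± 15.4 to 0.265 ± 0.151 CPM, edgeR adjusted p = 0.000491) and the receptors Cxcr2 (edgeR adjusted p = 0.00103) and Csf3r (edgeR adjusted p = 0.00125). At 3wk 1 of 15 passed under dual ICI, the integrin gene Itgb2, which is shared by many leukocytes (60.5 ± 4.89 to 106.7 ± 19.2 CPM, edgeR adjusted p = 0.026). In uncured against untreated mice edgeR called 0 of 17 of these genes (3 before adjustment, 0 by DESeq2) and 0 of 19 partners (2 before adjustment, 1 by DESeq2).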

How the data were processed

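RNA from tumor tissue was sequenced as paired-end reads of 150 bp and aligned to mm10. The submitters' processing notes name STAR 2.7.0f and featureCounts 1.6.4, whereas the study's methods name STAR with HTSeq. The authors deposited raw counts per gene symbol without normalization, and strand settings are not given in the sources used here. Of the 24421 symbols 95.7% matched GENCODE vM21.

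The members and gene lists were chosen with earlier results of these data known. Counts were fitted with edgeR 4.0.16 in R 4.3.3 (TMM; filterByExpr on groups; the two-sided quasi-likelihood F test; Benjamini-Hochberg adjustment over all genes tested; threshold 0.05), with only the compared groups in a fit. CPM used TMM scaling over 29 libraries, log2 CPM a prior count of 2, and a score was the mean log2 CPM of a list. Genes at 3 counts or fewer in every library of a group were given a bound. Correlations used 100000 permutations. Alternatives were DESeq2 1.42.0, upper-quartile normalization, no filter, at least 10 counts in every library, no skeletal muscle genes, all 29 libraries in one fit, a block on replicate numbers, leaving out single mice, and the epithelium score as a covariate; for correlations and ratios, a prior count of 0.5, a list median, ranks and S100a8 as denominator. All members are named; of other lists, at most the 4 called genes with the smallest p; the 3 most similar genes are named per member, except 1 that is not reported here. The fits were tested on simulated data. Each library is 1 mouse. Bounds cover counting error only. Promoter sequences are from RefSeq, GRCm38.p6, which matched all 9 members.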

Additional observations from a re-analysis of the deposited data

Results flagged for a closer look

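In the 40 sets formed by a member and a group of 4 or 5 mice, 2 single mice stood apart by Dixon's criterion, close to the 1 in 20 that chance gives. Retnlg in untreated mouse 3 at 3wk was 5.13 CPM, where the other 4 mice lay between 1.65 and 2.39 CPM. Clec4e in untreated mouse 4 at 3wk was 1.65 CPM, where the others lay between 0.618 and 0.771 CPM. Both mice are the only untreated ones that reach the dual ICI range of that gene, and leaving out mouse 3 brought Retnlg past the threshold (adjusted p = 0.0375).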

How the results depend on the processing

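The number of members called for dual ICI at 3wk was 3 with DESeq2, 3 with the epithelium score as a covariate, 1 with the replicate block and 0 to 1 with a mouse left out. Over the whole table those settings called 501, 1171, 209 and 6 to 119 genes. For the other fits in this section the genes called over the whole table are not given, so their member counts cannot be set against a share. Requiring at least 10 counts in every library left 2 members tested, both called, in cured against untreated, uncured against cured and anti-CTLA4 against cured mice, and 1 of 2 called in anti-PD1 against cured mice, since fewer genes were tested. Leaving out a mouse gave 0 to 8 calls in anti-PD1 against cured mice. One fit of all 29 libraries called 5 members for the undivided dual ICI group and 0 for uncured mice at 5wk against dual ICI at 3wk, where the replicate block called 3 and leaving out a mouse gave 0 to 3. The epithelium score as a covariate left 1 member called over time in untreated mice and turned Clec4e (-0.32) and Trem1 (-0.47), neither of them called. At 5wk the number of members correlated with the score was 0 by Spearman's rho, 0 without the 2 farthest mice and 2 without anti-PD1 mouse 5, an alternative chosen after seeing the data. At 3wk Retnlg turned to 0.073 as deviations, 0.067 as rho and 0.370 without the 2 farthest mice, and Lcn2 to -0.340 without them. The ratio of Lcn2 in cured mice turned to 0.81 against S100a8 and ran from -0.78 to 0.042 with a mouse left out. Causes were not tested where not stated.

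Same-numbered mice did not pair: at 3wk the correlation of their deviations ran from -0.22 to 0.56, and no comparison with 3 or more pairs had all above 0.1. The replicate block called 6 members in cured against untreated mice (Retnlg and Fpr1 lost) and 8 in anti-PD1 against cured mice. No block was possible for uncured against cured mice, which share no number. Low counts limit Fpr1, Fpr2, Clec4e and Trem1 in cured mice.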
